A study of Mus musculus with 8 samples.

Results

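The RNA-binding proteins of the Nova, Rbfox and Ptbp families and Srrm4 decide which exons are kept in the mRNA of developing neurons. Their 9 genes, Nova1, Nova2, Rbfox1, Rbfox2, Rbfox3, Ptbp1, Ptbp2, Ptbp3 and Srrm4, were taken by name from the 29092 gene rows of an mRNA-seq count table. All 9 were in the table. GFP+ enteric neural crest-derived cells (ENCDCs) and GFP- gut cells had been isolated by sorting whole bowels (from stomach to anus) at E13.5 from embryos that carried the Ednrb-EGFP reporter from crosses of heterozygous Ednrb-EGFP with wild-type C57BL/6J mice and were labelled wild-type. No treatment is given in the labels. Each population had 4 libraries made from 750 pg of RNA, pooled from several samples where needed, so p-values measure the spread between these libraries. The sort rests on the reporter alone, so each population is a mixture of cell types and stages.

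Ptbp1 is the splicing repressor of progenitors and non-neural tissues, and Ptbp2 takes its place in new neurons. In the brain Ptbp1 protein causes an exon of Ptbp2 to be skipped, which sends that RNA to nonsense-mediated decay, and miR-124 lowers Ptbp1. Nova proteins bind YCAY motifs and Rbfox proteins bind UGCAUG next to alternative exons, while Srrm4 promotes the inclusion of neural microexons. Counts were summed over all transcripts of a gene, so the choice of exons itself was not measured. In bulk RNA, fewer cells that express a gene and less RNA per cell cannot be told apart.

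The exon through which Ptbp1 acts on Ptbp2, and on its own RNA, is shown because a skipped copy is still counted as a read of the gene. It is exon 10 of the longest coding transcripts in GENCODE M21 (mm10), at chr10:79862014-79862047 on the plus strand in Ptbp1 and at chr3:119724612-119724645 on the minus strand in Ptbp2. Both copies are 34 bases long, and capitals mark the 8 bases that differ between them.
Ptbp1 exon 10: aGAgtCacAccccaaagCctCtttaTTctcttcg
Ptbp2 exon 10: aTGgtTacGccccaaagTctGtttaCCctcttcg
The exon lies in 3 of 3 long coding transcripts of Ptbp1 and in 2 of 2 of Ptbp2. In each gene, 2 of 2 annotated decay transcripts that span the position leave it out.

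The mature miR-9-5p and the places where the Ptbp 3' untranslated regions (UTRs) pair with its seed are shown because all members of that family hold one. Capitals mark the seed (bases 2 to 8) in the miRNA, as given by RefSeq on GRCm38.p6, and the bases ACCAAAG that pair with it, read on the mRNA strand.
miR-9-5p: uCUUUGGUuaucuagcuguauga
Ptbp1 3' UTR: aaaattttggACCAAAGtttagctttct
Ptbp2 3' UTR: accaggtgggACCAAAGtttatgtgcct
Ptbp3 3' UTR: acaaaacaggACCAAAGtttatgtgcct
These matches lie at chr10:79864017-79864023 (plus), chr3:119719340-119719346 (minus) and chr4:59473174-59473180 (minus). From the first base of the match, the Ptbp2 and Ptbp3 stretches were identical over 18 of 18 bases, and Ptbp1 shared the first 11 with each. Among 3' UTRs of 80% to 120% of its length, ACCAAAG was present in 13.2% for Ptbp1, 14.0% for Ptbp2 and 36.5% for Ptbp3, which holds 2 matches. Rbfox2 and Srrm4 each held 1 match, with 36.9% (Rbfox2) and 37.4% (Srrm4) of like-length 3' UTRs holding one.

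miR-137-3p is shown because it was the only one of the 4 miRNAs searched (miR-9-5p, miR-27b-3p, miR-137-3p and miR-488-3p) whose seed match AGCAATA was found in both Nova genes and in Ptbp1.
miR-137-3p: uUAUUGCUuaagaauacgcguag
Nova1 3' UTR: atgatcaaaaAGCAATAtagttgcataa
Nova2 3' UTR: atccctagaaAGCAATAgccttcgaggt
Ptbp1 3' UTR: acctgtgcctAGCAATAtttccacttga
They lie at chr12:46699459-46699465 (minus), chr7:18960699-18960705 (plus) and chr10:79863799-79863805 (plus). AGCAATA was present in 32.9% of like-length 3' UTRs for Nova1, 35.6% for Nova2 and 9.7% for Ptbp1. Nova1 also held 2 matches for miR-27b-3p (ACTGTGA) and 2 for miR-488-3p (CCTTTCA), present in 46.1% and 46.0% of like-length 3' UTRs, and Srrm4 held 1 for miR-488-3p, present in 44.2%. The mature sequence of miR-124 was not at hand, so its seed was not searched for in any of these 3' UTRs. A match is a description of the sequence, and no miRNA level was measured in these libraries.

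Total counts were 13250893 to 13267220 per library. All 6 neural crest markers and all 7 neuronal markers were higher in ENCDCs, with summed counts of 31920 to 42290 in ENCDC against 386 to 660 in gut libraries for the crest list and 29116 to 35345 in ENCDC against 779 to 847 in gut libraries for the neuronal list. The first principal component (66.8% of the variance) separated the populations, and the second (11.4%) set ENCDC replicate 3 apart from all other libraries. That library held 19575 counts of the 7 mesenchyme markers, against at most 7981 in the other ENCDC libraries and 144929 to 193011 in gut libraries. Its 7 smooth muscle markers summed to 9956, against at most 3394 in the other ENCDC and 49055 to 60905 in gut libraries. Of these 14 markers, only Twist1 was at 0 in any ENCDC library (replicate 4). ENCDC replicate 3 also held the most epithelium (511, against at most 380), endothelium (172, against at most 142) and leukocyte (910, against at most 547) marker counts of the ENCDC libraries. Its erythroid markers summed to 924, within the range of the other ENCDC libraries.

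All 9 genes passed the filter on low counts, also on their gut libraries alone. Of the 9, 6 were higher in ENCDCs (Srrm4, Nova2, Rbfox1, Rbfox3, Nova1 and Ptbp2), beside 17.0% of the 18866 genes tested. Only Ptbp3 was lower in ENCDCs, beside 20.9% of all genes. Rbfox2 and Ptbp1 did not pass the test. The libraries of the populations did not overlap for 7 of the 9, beside 37.3% of all genes. The fold changes come from edgeR's quasi-likelihood test with Benjamini-Hochberg adjustment over all genes, where the median log2 fold change was -0.04. These 7 calls held under all 15 alternatives.

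**Figure D1:**
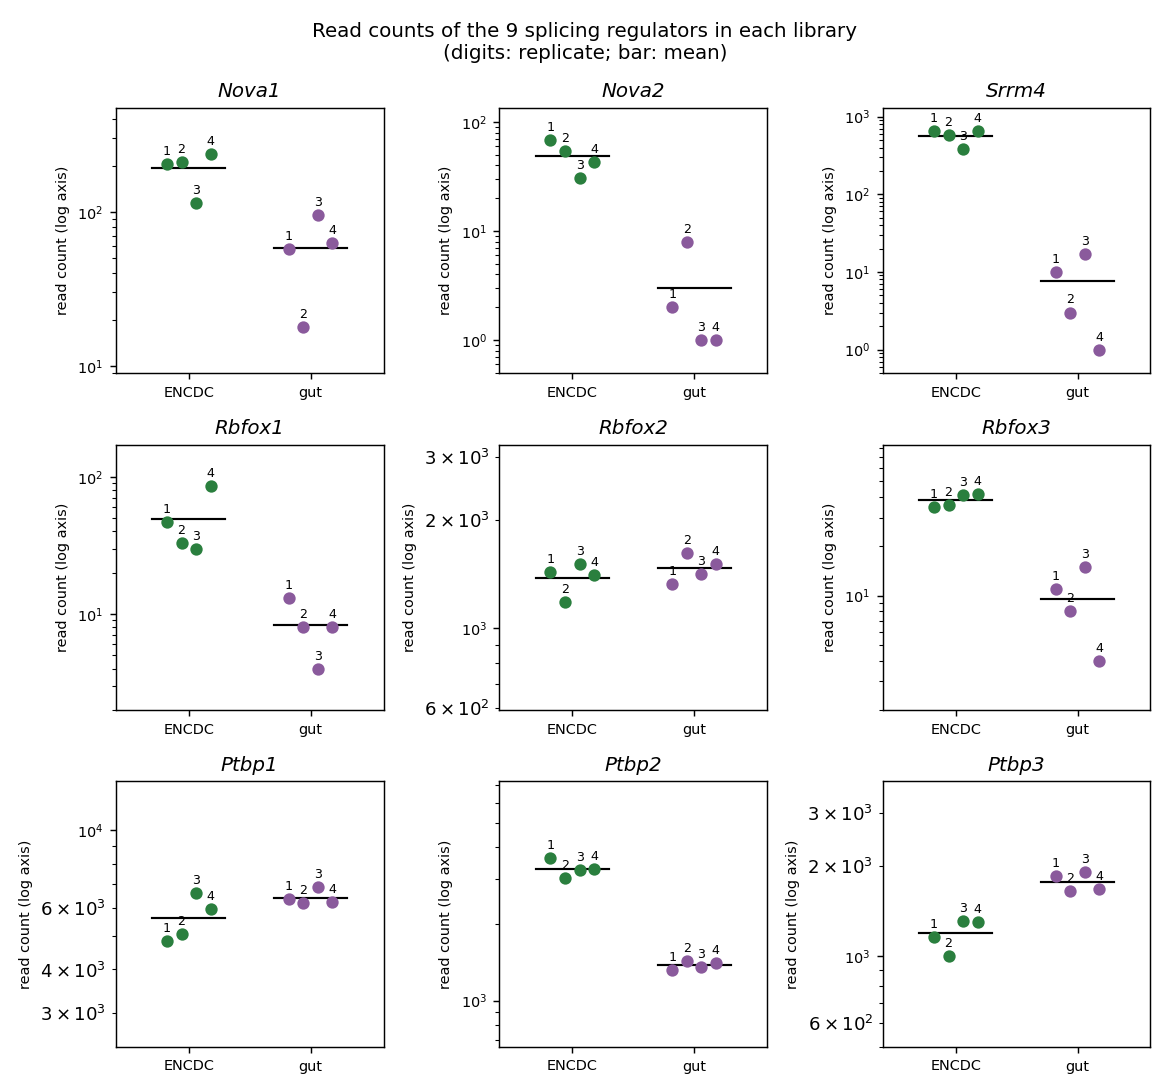
Read counts (log axis, 1 panel per gene) in the 4 ENCDC libraries (green) and the 4 gut libraries (purple), with digits for the replicates and bars for the means. Srrm4 shows the widest gap, 383 to 654 in ENCDC against 1 to 17 in gut libraries, while Ptbp1 and Rbfox2 overlap.

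Among the Ptbp repressors, the neuronal paralog was higher and Ptbp3 lower in ENCDCs, while Ptbp1 was the most abundant in both populations. Ptbp2, on chromosome 3 (119718742 to 119784466), had 3629, 3036, 3264 and 3276 reads in ENCDC libraries, against 1317, 1435, 1357 and 1401 in gut libraries. Every ENCDC library held more than every gut library, and the replicates of each population lay close together. The log2 fold change was 1.31 ± 0.09 (SE, n = 4 each, edgeR adjusted p = 8.19e-07), or 2.48-fold.

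Ptbp1, on chromosome 10 (79854427 to 79864771), had 4810, 5063, 6627 and 5939 reads in ENCDC libraries, against 6357, 6182, 6884 and 6230 in gut libraries. ENCDC replicate 3 lay within the gut range and the other ENCDC libraries below it. The log2 fold change was -0.14 ± 0.10 (SE, n = 4 each, edgeR adjusted p = 0.312), with a 95% interval of -0.37 to 0.08. Without ENCDC replicate 3 it was -0.25 (edgeR adjusted p = 0.0512). That library held the most mesenchyme, smooth muscle, epithelium, endothelium and leukocyte marker counts of the ENCDC libraries. The part of those cells in the Ptbp1 level was not tested. Ptbp1 shares 251 exon bases with Plppr3 on the opposite strand, a neuronal gene that was higher in ENCDCs (log2 fold change 0.77, edgeR adjusted p = 5.04e-04). It also shares 295 with E130317F20Rik (mean of 73.6 reads, log2 fold change -0.11) and 437 with Gm17134 (mean of 2.8 reads), both on the opposite strand. These unstranded libraries cannot assign reads in the shared bases to one strand.

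Ptbp3, a paralog first described in blood cells and placed on chromosome 4 (59471868 to 59549364), had 1165, 1000, 1317 and 1300 reads in ENCDC libraries, against 1849, 1646, 1913 and 1673 in gut libraries. The ranges did not overlap. Its log2 fold change was -0.52 ± 0.11 (SE, n = 4 each, edgeR adjusted p = 0.00409), so gut cells held 1.43-fold more.

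Because all members of the family were read in the same library, their ratios do not depend on scaling between libraries. For each 100 reads of Ptbp1 there were 75.5, 60.0, 49.3 and 55.2 reads of Ptbp2 in ENCDC libraries, against 20.7, 23.2, 19.7 and 22.5 in gut libraries. The ENCDC ratio was 2.76-fold higher (exact permutation test, two-sided, p = 0.0286, the smallest that 4 against 4 allows, adjusted p = 0.0357 over 5 ratios). Reads of Ptbp3 per 100 of Ptbp1 numbered 24.2, 19.8, 19.9 and 21.9 in ENCDC libraries, against 29.1, 26.6, 27.8 and 26.9 in gut libraries. This ratio was 1.29-fold lower in ENCDCs (exact permutation test, two-sided, p = 0.0286, adjusted p = 0.0357). The adjusted p of the Ptbp3 ratio was 0.0571 to 0.0714 when 1 of the gut libraries was left out.

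Counts divided by exon length and library size (RPKM) allow the paralogs to be set side by side. Ptbp1 made up 69.3% ± 3.22 of the summed RPKM of its family in ENCDC and 77.8% ± 0.35 in gut libraries (SD, n = 4 each). Ptbp2 made up 21.3% ± 2.92 in ENCDC and 8.65% ± 0.63 in gut libraries, and Ptbp3 9.38% ± 0.56 in ENCDC and 13.6% ± 0.54 in gut libraries. Thus Ptbp2 ranked above Ptbp3 in every ENCDC library and below it in every gut library.

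**Figure D2:**
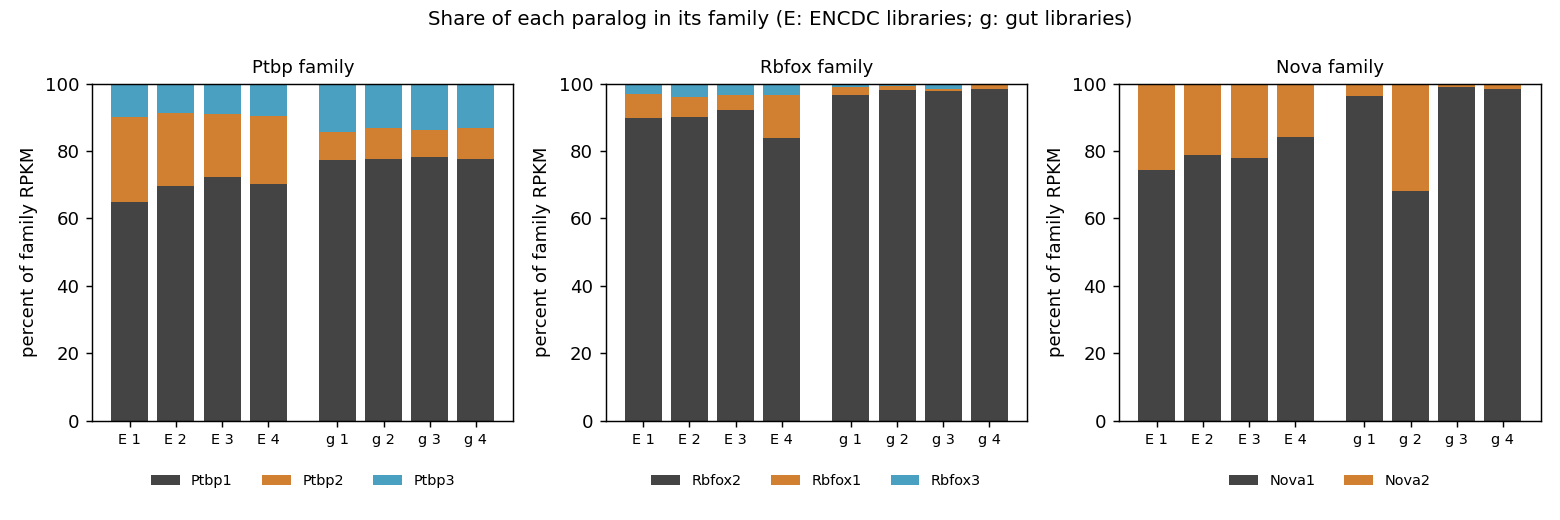
Share of each paralog in the summed RPKM of its family (vertical axis, percent), with a bar for each of the 4 ENCDC (E) and 4 gut (g) libraries. Ptbp2 takes 18.4% to 25.3% of the Ptbp family in ENCDC and 7.97% to 9.31% in gut libraries, and Nova2 takes 31.7% of the Nova family in gut replicate 2 against at most 3.54% in the other gut libraries.

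Srrm4, the activator of neural microexons, showed the largest difference of the 9. It lies on chromosome 5 (116439275 to 116591817). It had 654, 582, 383 and 644 reads in ENCDC libraries, against 10, 3, 17 and 1 in gut libraries. The lowest ENCDC library, replicate 3, still lay far above the highest gut library. The log2 fold change was 6.22 ± 0.51 (SE, n = 4 each, edgeR adjusted p = 3.56e-06), and 6.94 without gut replicate 3, the gut library with the most Srrm4 reads. The antisense transcript Srrm4os, which shares 68 exon bases with it, had 207, 135, 165 and 111 reads in ENCDC libraries, against 0, 5, 1 and 0 in gut libraries (log2 fold change 6.62, edgeR adjusted p = 4.59e-05).

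Both Nova genes were higher in ENCDCs and both were sparse. Nova1, on chromosome 12 (46694517 to 46818929), had 205, 210, 115 and 238 reads in ENCDC libraries, against 57, 18, 95 and 63 in gut libraries. The lowest ENCDC count (replicate 3) and the highest gut count (replicate 3) lay close together, without overlap. ENCDCs were higher by a log2 fold change of 1.77 ± 0.44 (SE, n = 4 each, edgeR adjusted p = 0.00903).

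Nova2, on chromosome 7 (18925888 to 18965319), had 68, 54, 31 and 43 reads in ENCDC libraries, against 2, 8, 1 and 1 in gut libraries. All ENCDC libraries lay above all gut libraries, where most held only 1 or 2 reads. For Nova2 the log2 fold change was 4.02 ± 0.75 (SE, n = 4 each, edgeR adjusted p = 0.00154), and 5.10 without gut replicate 2. The lincRNA Gm26821 covers 31.7% of the Nova2 exon bases on the opposite strand, so part of these reads could not be assigned to one of them.

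Within a library, Nova1 numbered 302, 389, 371 and 554 reads per 100 of Nova2 in ENCDC libraries, against 2850, 225, 9500 and 6300 in gut libraries. Gut replicate 2 lay below all ENCDC libraries and the other gut libraries far above them. The log2 ratio was -2.29 (ENCDC minus gut, exact permutation test, two-sided, p = 0.143, adjusted p = 0.143 over 5 ratios). Without gut replicate 2 it was -3.34 with an adjusted p of 0.0357 (exact permutation test). In the gut libraries the ratio rests on at most 8 reads of Nova2.

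The Rbfox family divided by paralog, with Rbfox1 and Rbfox3 higher in ENCDCs and Rbfox2 not passing the test. Rbfox3, on chromosome 11 (118489762 to 118911597), encodes NeuN, the antigen widely used to stain mature neurons. It had 35, 36, 41 and 42 reads in ENCDC libraries, against 11, 8, 15 and 4 in gut libraries. The ENCDC counts were nearly even and all lay above the gut counts, with a log2 fold change of 2.05 ± 0.56 (SE, n = 4 each, edgeR adjusted p = 0.0133).

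Rbfox1, a neuron and muscle paralog on chromosome 16 (5885355 to 7411526), had 47, 33, 30 and 86 reads in ENCDC libraries, against 13, 8, 4 and 8 in gut libraries. ENCDC replicate 4 held the most and no library of one population fell within the other. Rbfox1 was higher by a log2 fold change of 2.61 ± 0.59 (SE, n = 4 each, edgeR adjusted p = 0.00518). The interval counted for Rbfox1 began at 6809022 and held 3334 of its 4400 annotated exon bases, so reads from its first exons were not counted. That interval ended at 7412679, past the annotated gene end, so the exon length used for the Rbfox1 RPKM may not match what was counted.

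Rbfox2, the broadly expressed paralog on chromosome 15 (77078990 to 77307004), had 1431, 1187, 1509 and 1411 reads in ENCDC libraries, against 1328, 1624, 1413 and 1513 in gut libraries. The ranges overlapped. The log2 fold change was -0.04 ± 0.11 (SE, n = 4 each, edgeR adjusted p = 0.822), with a 95% interval of -0.28 to 0.20. It was 0.03 without ENCDC replicate 2, so no direction can be given.

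**Figure D3:**
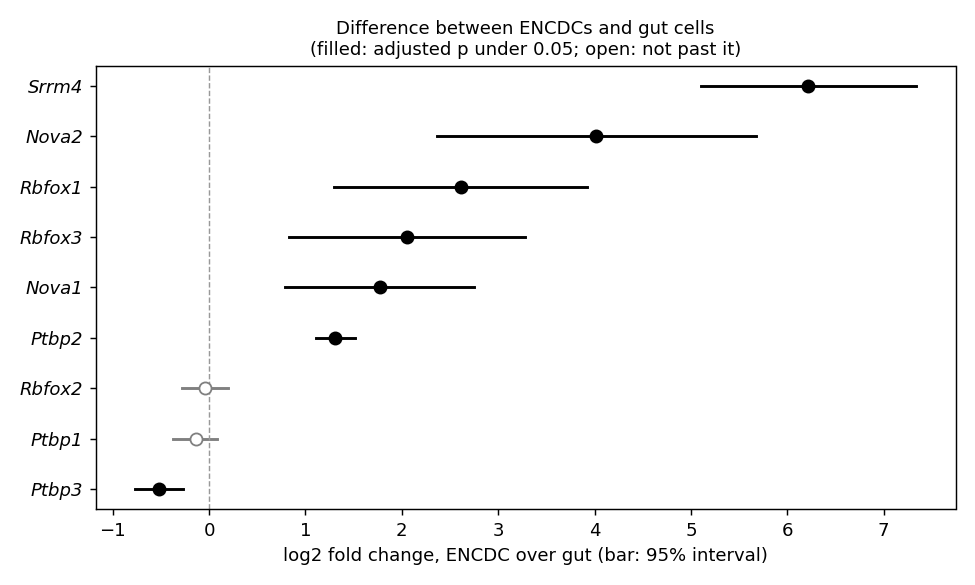
Log2 fold changes of the 9 genes, ENCDC over gut (horizontal axis), as points with 95% intervals, filled where the adjusted p was under 0.05. They run from 6.22 for Srrm4 to -0.52 for Ptbp3, and the intervals of Rbfox2 and Ptbp1 (open points) include 0.

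Relative to Rbfox2 in the same library, both sparse paralogs were higher in ENCDCs. Rbfox1 had 3.28, 2.78, 1.99 and 6.10 reads per 100 of Rbfox2 in ENCDC libraries, against 0.979, 0.493, 0.283 and 0.529 in gut libraries (5.91-fold, exact permutation test, two-sided, p = 0.0286, adjusted p = 0.0357). Rbfox3 had 2.45, 3.03, 2.72 and 2.98 in ENCDC libraries, against 0.828, 0.493, 1.06 and 0.264 in gut libraries (4.55-fold, exact permutation test, two-sided, p = 0.0286, adjusted p = 0.0357). Even so, Rbfox2 made up 89.0% ± 3.46 of the family's RPKM in ENCDC and 97.7% ± 0.80 in gut libraries (SD, n = 4 each).

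**Figure D4:**
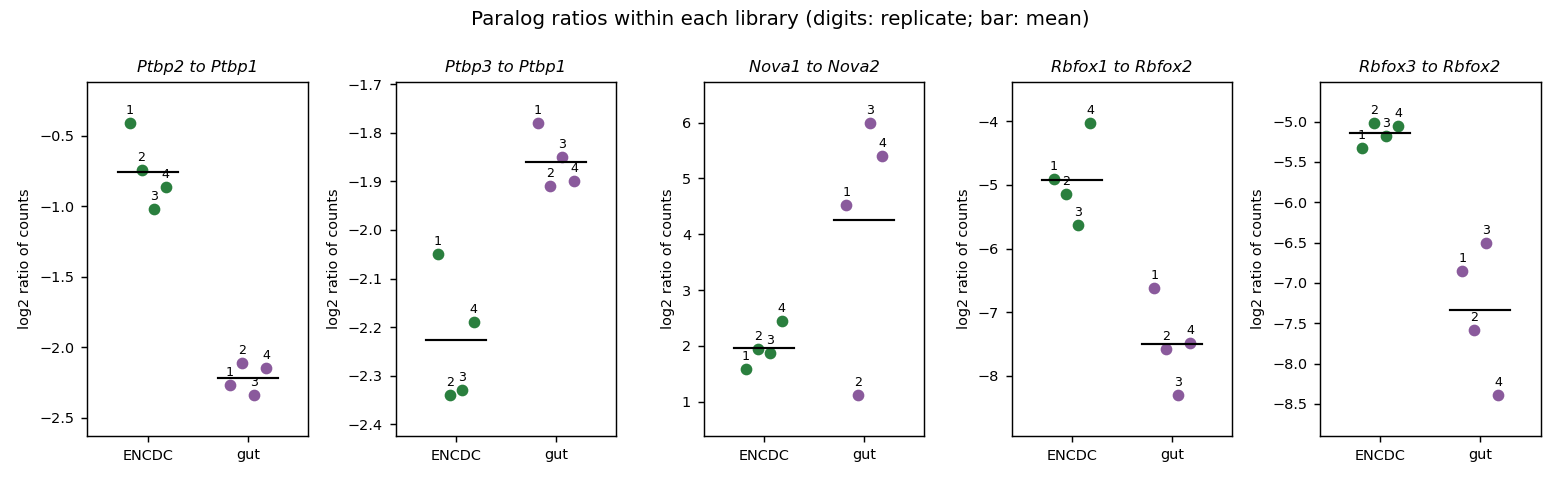
Log2 ratio of the counts of 2 paralogs within a library (vertical axis, a pseudocount of 0.5 added), with digits for the replicates, bars for the means, ENCDC in green and gut in purple. The populations separate in 4 of the 5 panels, and in the Nova panel gut replicate 2 lies below the ENCDC libraries.

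On the RPKM scale in ENCDC libraries, levels ran from Ptbp1 (90.8 ± 13.2) through Ptbp2 (27.6 ± 2.05), Rbfox2 (13.1 ± 1.27), Ptbp3 (12.3 ± 1.52), Srrm4 (5.01 ± 1.15), Nova1 (1.69 ± 0.48) and Rbfox1 (1.13 ± 0.61) to Rbfox3 (0.508 ± 0.048) and Nova2 (0.450 ± 0.145; SD, n = 4). The ranges of Rbfox2 and Ptbp3, of Nova1 and Rbfox1, and of Rbfox3 and Nova2 overlapped across libraries. Differences between these neighbours within a library were not tested. In gut libraries the order was Ptbp1 (100.4 ± 5.20), Ptbp3 (17.6 ± 1.25), Rbfox2 (13.4 ± 1.23), Ptbp2 (11.1 ± 0.48), Nova1 (0.494 ± 0.269), Rbfox1 (0.183 ± 0.080), Rbfox3 (0.121 ± 0.059), Srrm4 (0.066 ± 0.062) and Nova2 (0.027 ± 0.030). The first 4 were separate from each other, and each gene from Nova1 down overlapped the next. Srrm4 thus stood above all Nova genes and the sparse Rbfox genes in ENCDCs and among the lowest in gut cells.

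The gut level as a percentage of the ENCDC level can be set beside that of the markers of the sorted cells. It was 1.32% for Srrm4, 5.91% for Nova2, 16.2% for Rbfox1, 23.8% for Rbfox3, 29.3% for Nova1 and 40.3% for Ptbp2. The neuronal markers lay at 0.584% to 4.56% and the crest markers at 0.550% to 7.04%. Srrm4 was within the range of the neuronal markers, and the other members that were higher in ENCDCs lay above that range. Nova2 was within the range of the crest markers. Its gut level rests on 2, 8, 1 and 1 reads, and its log2 fold change rose from 4.02 to 5.10 without gut replicate 2. The place of Nova2 against the neuronal markers thus depends on that library.

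ENCDC replicate 3 was the lowest ENCDC library for Nova1, Nova2, Rbfox1 and Srrm4 and the highest for Ptbp1, Ptbp3 and Rbfox2. Its counts were 52.8%, 56.4%, 54.2% and 61.1% of the mean of the other ENCDC libraries for Nova1, Nova2, Rbfox1 and Srrm4, and 125.7%, 114.0% and 112.4% for Ptbp1, Ptbp3 and Rbfox2. Rbfox3 (108.8%) and Ptbp2 (98.5%) differed less. The 7 neuronal markers summed to 29116 in this library and to 31378 to 35345 in the other ENCDC libraries. They did not move together. Snap25 (241, against 772 to 908), Elavl4, Stmn2 and Gap43 were lowest there, Tubb3 was highest (10145, against 8007 to 9106), and Stmn3 and Uchl1 lay between. Its crest markers summed to 34899, within the range of the other ENCDC libraries. Without ENCDC replicate 3, the log2 fold changes were 1.93 for Nova1, 4.18 for Nova2, 2.76 for Rbfox1 and 6.34 for Srrm4. The part of the other cell types in these levels was not tested.

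Of 64 other splicing factors tested on 8 lists, 33 (51.6%) were higher in ENCDCs, beside 17.0% of all genes, and 8 (12.5%) were lower, beside 20.9% of all genes. The other 23 did not pass the test, and the median log2 fold change was 0.32 against -0.04 over all genes. Over the 15 alternatives, 25 to 39 of these factors were higher and 7 to 8 lower. The share over all genes was not matched for read count, and many of these factors had high counts. The CELF and MBNL proteins, which regulate developmental splicing and compete on many exons, went mostly in opposite directions. Higher levels in ENCDCs were called for 5 of the 6 Celf genes and lower levels for 2 of the 3 Mbnl genes, with a list median of 1.14. Celf2 had 4921, 4704, 2380 and 4050 reads in ENCDC libraries, against 1870, 1525, 2244 and 1885 in gut libraries (log2 fold change 1.14). Celf3 had 734, 935, 884 and 895 reads in ENCDC libraries, against 18, 20, 22 and 16 in gut libraries (5.54). Celf4 had 278, 302, 91 and 196 reads in ENCDC libraries, against 100, 78, 108 and 90 in gut libraries (1.26). Its ENCDC replicate 3 lay within the gut range. The Celf4 call was lost under the block and without ENCDC replicate 1 or 2 or gut replicate 2 (edgeR adjusted p = 0.0522 to 0.0625). Mbnl1 was lower, with 1365, 1220, 1123 and 986 reads in ENCDC libraries against 2388, 2551, 2658 and 1824 in gut libraries (-0.96), and Mbnl3 had a log2 fold change of -2.46, or -3.22 without ENCDC replicate 1.

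The 8 regulators of epithelial and muscle splicing went mostly the other way, with 5 lower, 1 higher and 2 not passing the test (median -2.46). Rbpms, a regulator in smooth muscle, had 367, 254, 763 and 318 reads in ENCDC libraries, against 3614, 4068, 3966 and 3817 in gut libraries (log2 fold change -3.14). The ENCDC maximum was again in replicate 3. Rbpms2 (-2.85), Esrp1 (-3.82) and Esrp2 (-2.08) were also lower, and the Esrp genes are the splicing regulators of epithelia. Esrp1 had 15, 3, 0 and 0 reads in ENCDC libraries, against 102, 45, 71 and 51 in gut libraries, and its log2 fold change was -5.88 without ENCDC replicate 1. Rbm24, which acts in heart and skeletal muscle, was higher in ENCDCs (1.03). Rbm47, the fifth lower gene (-2.83), lost its call without 7 of the 8 single libraries. Esrp1 and Rbm47 were chosen after their values were seen.

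The 4 STAR proteins, KH-domain regulators that include Quaking, were all higher, by 0.60 for Qk, 0.35 for Khdrbs1, 1.12 for Khdrbs2 and 0.84 for Khdrbs3. The calls of Khdrbs1 and Khdrbs2 were lost without several single libraries, so that 2 of 4 passed without ENCDC replicate 2, gut replicate 1 or gut replicate 2. Of the 8 partners of Rbfox in the large assembly of splicing regulators (LASR), 4 were higher and none lower (median 0.34), among them Ddx5 (0.33), Matr3 (0.48) and Ilf2 (0.54). Ddx5 lost its call without 5 of the 8 single libraries. Matr3 is also a partner of Ptbp1, as is Raver2, which had 350, 100, 142 and 199 reads in ENCDC libraries, against 697, 660, 740 and 640 in gut libraries (log2 fold change -1.74, edgeR adjusted p = 0.00131). Raver1, the other PTB cofactor, has 2 table rows that share nearly all exons and held a mean of 9.0 and 7.1 reads, and it was left out.

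Among the relatives and cofactors of Srrm4, Srrm3, the other activator of neural microexons, had 173, 174, 106 and 126 reads in ENCDC libraries, against 10, 10, 3 and 1 in gut libraries (log2 fold change 4.62, edgeR adjusted p = 9.85e-05). Rnps1, which works with Srrm4 on microexons, was higher by 0.56. The general splicing coactivators Srrm1 (-0.04) and Srrm2 (0.10) and the cofactor Srsf11 (0.11) did not pass the test.

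General splicing factors moved by smaller amounts. Of 13 SR proteins, which mostly promote exon inclusion, 6 were higher and none lower (median 0.25), among them Srsf3 (0.29), Srsf7 (0.35), Srsf1 (0.32) and Srsf2 (0.50). Of 21 hnRNP proteins, 11 were higher and none lower (median 0.32), among them Hnrnpk (0.32), Hnrnpa2b1 (0.42), Hnrnpu (0.38) and Hnrnpab (0.71). The hnRNP count was 7 without ENCDC replicate 1 or without gut replicate 2, and 15 without ENCDC replicate 3. The SR count ran from 4 to 7 over the alternatives. Hnrnpab shares 29.1% of its exon bases with Phykpl and Srsf2 15.6% with Mettl23, each on the opposite strand.

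**Figure D5:**
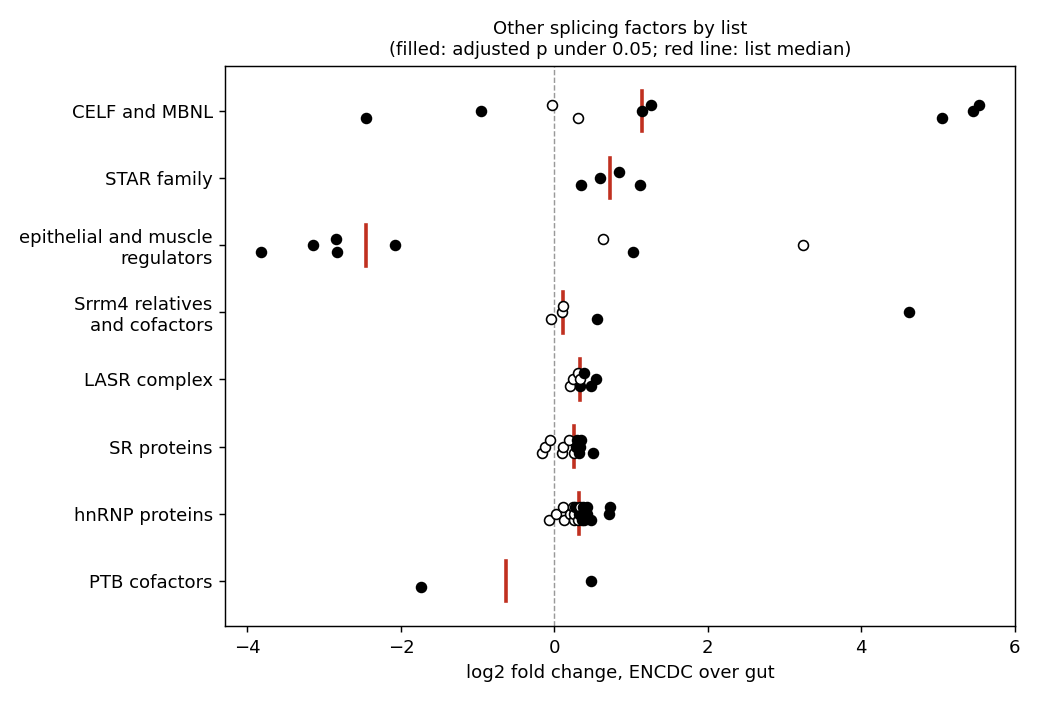
Log2 fold change, ENCDC over gut (horizontal axis), of each tested gene of 8 lists of splicing factors (rows), filled where the adjusted p was under 0.05, with red lines for the list medians. The medians run from 1.14 for CELF and MBNL to -2.46 for the epithelial and muscle regulators, while SR and hnRNP proteins cluster near 0.25 and 0.32.

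The genes that are linked to these regulators in the brain were read last. Rest, the repressor of neuronal genes whose RNA is spliced by Srrm4, had 1177, 1127, 968 and 926 reads in ENCDC libraries, against 2145, 2036, 1989 and 2166 in gut libraries (log2 fold change -0.94, edgeR adjusted p = 3.56e-05). Mir124a-1hg, a host transcript of miR-124, had 64, 61, 82 and 68 reads in ENCDC libraries and 0 in all 4 gut libraries, at least 91.7-fold higher when the gut libraries together are set at 3 counts. Dlg4, which encodes PSD-95 and loses an exon under Ptbp repression, had 58, 120, 94 and 67 reads in ENCDC libraries, against 128, 105, 117 and 89 in gut libraries, and did not pass the test (-0.32, edgeR adjusted p = 0.463). The other 3 names on this list had no row under that symbol.

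For the most abundant member of each family and for Srrm4, the tested genes with the nearest profile over the 8 libraries were found among 10926 genes whose mean count reached 100. Likeness was the distance between log2 values, each gene centred on its own mean. The nearest to Nova1 were Bicd1 (0.99) and Prkaa2 (1.08), against a median distance of 3.29. Rbfox2 lay nearest to Mta2 (0.20) and Ap1m1 (0.21), with a median of 0.94. Ptbp1 lay nearest to Ctnna1 (0.16) and Nol6 (0.16), with a median of 1.01. Srrm4 lay nearest to Gm33167 (0.74) and Syt1 (0.79), the calcium sensor of synaptic vesicles, with a median of 9.02. These 8 points share their libraries and the difference between populations.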

How the data were processed

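Reads were aligned by the authors to mm10 with STAR 2.4.2a and normalized with PORT, and the minimum normalized read counts were deposited as whole-number counts per gene, already brought to nearly 1 depth. The design text speaks of small RNAs and CPM, but title, paper and values are those of mRNA counts, and 0 columns were left unused. A gene was tested with a mean count of at least 3 and counts above 0 in at least 3 libraries of 1 population. The populations were tested against each other by edgeR 4.0.16 under R 4.3.3 (TMM factors, quasi-likelihood F test, Benjamini-Hochberg adjustment, calls at 0.05). Alternatives were voom with limma 3.58.1, DESeq2 1.42.0, RLE or no factors, other filters, a replicate block and leaving out each library. Ratios were taken on log2(count + 0.5) and tested by exact permutation over 70 splits. Intervals of fold changes are 95%. RPKM used the exon bases in the counted interval. Positions, exons and UTRs came from GENCODE M21, in which 29035 of 29092 IDs and all 9 members matched. No run of 50 bases was shared between paralogs. Scripts used Python 3.11.15, pandas 2.3.3 and matplotlib 3.10.9. The edgeR, voom and DESeq2 fits were checked on simulated data, and the permutation tests were not.

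The members and lists were chosen with earlier results of these data known. The text names all members, up to 4 called genes of highest mean count per list, each called against its list, every gene of lists of 5 or fewer, and 2 nearest profiles. A gene that this rule picks is not reported here. The other markers were those of epithelium (all 7 lower in ENCDCs), endothelium (4 of 5 lower), leukocytes (all 5 lower) and erythroid cells (all 6 lower), beside mesenchyme and smooth muscle (all 7 lower in each). Replicates with the same number deviated with correlations of -0.013 to 0.032, within the -0.050 to 0.061 of replicates with unlike numbers. The labels do not say whether the numbers pair the samples, and these correlations cannot decide it. Small RNA and knockout data were not analysed here.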

Additional observations from a re-analysis of the deposited data

Results flagged for a closer look

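The Nova2 count of gut replicate 2 was 8, against 2, 1 and 1 in the other gut libraries. Its gap to the next library was 0.857 of the group's range, above Dixon's 95% limit for a group of 4. Among the 28 groups examined 1 such value was found, and chance gives about 1 in 20 groups. Nova1 was lowest of all libraries in the same replicate, at 18 reads. These are differences of a few reads.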

How the results depend on the processing

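The 6 higher and 1 lower calls among the 9 genes held under all 15 alternatives, with adjusted p of at most 0.0454 (Rbfox3 under the replicate block). Rbfox2, not called, turned to 0.03 without ENCDC replicate 2. Leaving out each library gave log2 fold changes of 1.44 to 2.12 for Nova1, 3.74 to 5.10 for Nova2, 2.18 to 2.91 for Rbfox1, -0.10 to 0.03 for Rbfox2, 1.78 to 2.37 for Rbfox3, -0.25 to -0.10 for Ptbp1, 1.24 to 1.35 for Ptbp2, -0.58 to -0.44 for Ptbp3 and 5.83 to 6.94 for Srrm4. The ratios ranged from 1.35 to 1.55 for Ptbp2 to Ptbp1, -0.43 to -0.33 for Ptbp3 to Ptbp1, -3.34 to -1.72 for Nova1 to Nova2, 2.26 to 2.85 for Rbfox1 to Rbfox2 and 1.83 to 2.46 for Rbfox3 to Rbfox2. The adjusted p of Ptbp3 to Ptbp1 missed 0.05 whichever gut library was left out, and that of Nova1 to Nova2 passed it without gut replicate 2.

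Whether the replicate numbers pair the samples is not known. With the replicate block, 2609 genes were higher and 3324 lower, against 3212 and 3946 without it, the 7 member calls held, and 3 CELF and MBNL genes were higher, not 5. The ratios kept their values under the block (1.46 for Ptbp2 to Ptbp1, -0.37 for Ptbp3 to Ptbp1, 2.56 for Rbfox1 to Rbfox2 and 2.18 for Rbfox3 to Rbfox2), with adjusted p of 0.156, since the smallest p it allows is 0.125. Voom with limma and DESeq2 each called 3 epithelial and muscle regulators higher, not 1. Nova2 and Srrm4 in gut cells rest on 1 to 17 reads a library, which limits the precision of their folds.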
